A study of Homo sapiens
Mus musculus and Mus musculus and Homo sapiens with 16 samples.

Results

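Glycolysis turns glucose into pyruvate, and when oxygen is short the transcription factor HIF raises many of its genes together with genes for angiogenesis, mitophagy and pH control. The 39 genes described here were listed by symbol for that pathway and not by a threshold on their values. They comprise 17 glycolytic enzyme genes, 4 genes that control the flow into and out of glycolysis, 2 glucose transporter genes, 3 genes for HIF and its oxygen sensors and 13 other hypoxia response genes. All 39 were found among the 58051 genes of the human count table. In the mouse table of 49671 genes, 38 were found under the same symbols (Gpi1 for GPI). Ca9 was not matched by symbol and its current name, Car9, was looked up in addition.

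The study measured poly(A) RNA by sequencing after a coculture of REC-1 with MS-5. REC-1 is an established human mantle cell lymphoma line, a cancer of mature B cells, and MS-5 is a mouse stromal line derived from bone marrow. REC-1 cells kept on their own were called Sep, those that floated free above the stroma were called Susp and those bound to the stroma were called Adh, and MS-5 cells were also kept on their own. Each of the 4 groups had 4 libraries, coculture lasted 24 h, and by the labels the cells of every group were grown in the same medium in a humidified incubator with added CO2. The labels name no library of cells kept under low oxygen, so the range that these genes can cover in either line was not measured here. An Adh library held RNA of both species, and the reads were assigned to human or mouse before counting, so that it gave a human value for bound REC-1 cells and a mouse value for the MS-5 cells beneath them. The study describes its RNA sequencing replicates as independent experiments, but the labels do not say which libraries came from 1 experiment. Libraries with the same replicate number also share a number in their sample codes, and the labels do not say what it marks.

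Human counts per library ranged from 7758979 to 21467832 and mouse counts from 10097555 to 34615602. Depth differed between groups, with human counts of 9325412 to 12597891 in Sep, 15000927 to 21467832 in Susp and 7758979 to 13241751 in Adh. Mouse counts were at most 17397651 in MS-5 alone and at least 29495404 in coculture. The summed level of 6 B cell marker genes was between 4337 and 5036 CPM (the count of a gene over the scaled library total, times 1e6) in REC-1 and at most 0.431 CPM in the mouse counts. The 10 stromal markers summed to between 5661 and 6560 CPM in MS-5 and to at most 5.91 CPM in REC-1, and 1 of them, Thy1, was at 0 in MS-5 cells. In the Adh libraries, 7 of the stromal markers could be checked, being low in Sep and well counted in MS-5. They had human counts of at most 0.0236% of their mouse counts. The 6 B cell markers, where well counted, had mouse counts of at most 0.280% of their human counts. Genes other than these markers could have a larger share. P4HA2 had 8 human beside 3564 mouse counts in Adh replicate 1, or 0.224%, and the source of these human counts was not tested. The library Susp replicate 2 stood apart for several of the genes below, and values that move by over 1.5 times or change in their call without it are given both ways where a result turns on them.

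ACGTG is a form of the core at which HIF binds DNA, and the promoters of the listed genes were searched for these letters. Either strand was read (ACGTG or CACGT, where a CACGTG counts as a pair of overlapping matches), and other forms of the core were not searched. In the 250 bases before the start of each gene's reference transcript in GRCh38 (hg38), 20 of the 39 genes held a match, or 51.3%. Of all 19061 promoters of the same length, 3914 did, or 20.5%. Matches were found for 8 of 17 glycolytic enzymes, 3 of 4 control genes, 0 of 2 glucose transporters, 1 of 3 genes for HIF and its sensors and 8 of 13 other hypoxia response genes. A match is a description of the letters and not a mapped binding site. The windows below are written 5′ to 3′ on the strand of the gene, with every match in capitals. They were chosen to set genes that were abundant in REC-1 cells (GAPDH, LDHA, ALDOA and PGK1) beside genes that were barely or not detected there (P4HA2 and CA9).
GAPDH, chr12:6534381-6534409, plus strand: gttttacgggcgCACGTagctcaggcctc
LDHA, chr11:18394478-18394506, plus strand: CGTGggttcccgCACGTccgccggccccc
ALDOA, chr16:30065550-30065578, plus strand: tgtggtccgagtCACGTccgaggggggtg
PGK1, chr X:78104053-78104081, plus strand: aaacggaagccgCACGTctcactagtacc
BNIP3, chr10:131982040-131982068, minus strand: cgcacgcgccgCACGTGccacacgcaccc
P4HA2, chr5:132227903-132227931, minus strand: cgtgaggtggggACGTGgcggcggctcaa
CA9, chr9:35673898-35673926, plus strand: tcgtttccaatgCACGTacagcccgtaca
The leading capitals of the LDHA window are the end of a neighbouring match, since that promoter held 5 matches, at 185, 184, 87, 86 and 73 bases before the start. The match nearest to the start lay 124 bases before it in GAPDH, 198 in ALDOA, 183 in PGK1, 133 in BNIP3, 66 in P4HA2 and 18 in CA9. Genes with a match were thus found both among the most abundant genes of REC-1 cells and among those at 0. LDHB, ENO1, TPI1 and PKM, which were also abundant in REC-1 cells, held no match. The whole promoter window of PGK1, the X-linked gene for phosphoglycerate kinase (chrX:78103998-78104247, plus strand), overlaps no annotated exon and holds a pair of separate matches.
PGK1: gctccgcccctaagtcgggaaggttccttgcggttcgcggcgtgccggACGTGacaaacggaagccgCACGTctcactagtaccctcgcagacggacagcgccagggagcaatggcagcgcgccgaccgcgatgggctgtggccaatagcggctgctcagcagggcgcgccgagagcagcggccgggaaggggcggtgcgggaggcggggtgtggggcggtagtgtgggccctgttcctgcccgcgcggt

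Levels of different genes were compared as RPKM, which divides CPM by the length in kilobases of all annotated exons of a gene together, so that seldom used exons lower the value. In Adh REC-1 cells the most abundant members were LDHB at 698 ± 21.7 RPKM (SD, n = 4) and ENO1, the gene for enolase, at 692 ± 31.7 RPKM. These values lay within their spread between libraries, which does not include the uncertainty of the exon lengths. By counts, ENO1 exceeded LDHB in every Adh library. GAPDH followed at 477 ± 29.8 RPKM. ALDOA, encoding aldolase, was at 207 ± 28.3 RPKM and LDHA at 201 ± 7.66 RPKM, again within their spread, though LDHA had more counts in every Adh library. Below them came TPI1 at 137 ± 1.505 RPKM, PKM, the gene for the last enzyme before pyruvate, at 114 ± 4.91 RPKM, PGK1 at 85.4 ± 1.38 RPKM and PGAM1 at 79.1 ± 4.49 RPKM. Upstream steps were lower, with HK2 at 32.3 ± 1.99 RPKM, GPI at 30.2 ± 1.55 RPKM and HK1 at 29.1 ± 1.40 RPKM, and the phosphofructokinase genes PFKM, PFKL and PFKP between 5.74 and 8.11 RPKM. HIF1A, the oxygen-regulated subunit of HIF, was at 39.8 ± 1.51 RPKM, which placed it above the hexokinases.

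The MS-5 cells of the same libraries used other members of several families, as the plot of RPKM in both compartments shows. Lactate dehydrogenase interconverts pyruvate and lactate, and its A and B subunits are separate genes. LDHB exceeded LDHA per length in REC-1 cells, by a ratio of 3.26 in Sep, 3.59 in Susp and 3.46 in Adh, whereas in MS-5 cells the ratio of Ldhb to Ldha was 0.0137 alone and 0.0147 in coculture. The hexokinases, which trap glucose in the cell, stood near parity in REC-1, with HK2 to HK1 ratios of 1.01 to 1.11, while Hk2 in MS-5 was at 0.101 and 0.104 of Hk1. Of the bifunctional regulators of phosphofructokinase, Adh REC-1 cells had PFKFB3 at 3.41 ± 0.748 and PFKFB4 at 1.21 ± 0.143 RPKM. MS-5 cells in coculture had Pfkfb3 at 0.0929 ± 0.0255 and Pfkfb4 at 7.10 ± 1.59 RPKM, so that the order was the opposite one. Pdk1, a kinase that shuts off pyruvate dehydrogenase, was at 10.4 ± 0.875 RPKM in MS-5 in coculture against 0.959 ± 0.210 RPKM for PDK1 in Adh REC-1. Among the HIF prolyl hydroxylases that sense oxygen, EGLN1 was present in both species, and EGLN3 was at 2.04 ± 0.238 RPKM in Adh REC-1 and Egln3 at 0 counts in all 8 mouse libraries. P4ha2, a collagen prolyl hydroxylase subunit, was at 16.1 ± 1.18 RPKM in MS-5, and P4HA2 had 8 counts in Adh replicate 1 and 0 in the other Adh libraries. These are values of separate alignments to separate annotations and were compared without a test.

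**Figure D1:**
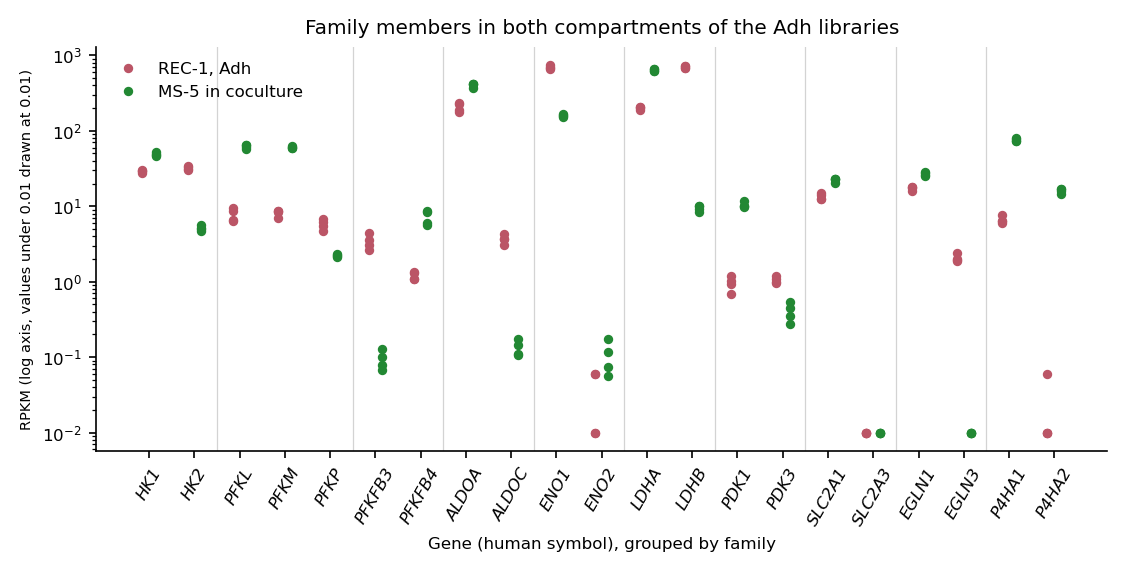
RPKM (log axis) of family members in the 4 Adh libraries, with human counts of REC-1 cells in red and mouse counts of MS-5 cells in green; each point is a library and values under 0.01 are drawn at 0.01. LDHB lies above LDHA in REC-1 (ratio 3.46) and far below it in MS-5 (ratio 0.0147), and the order of PFKFB3 and PFKFB4 is also opposite in the 2 species.

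Genes at or near 0 were not tested. In REC-1 these were CA9, the carbonic anhydrase often used as a marker of hypoxic tumour cells, with 0 counts in all 12 libraries, SLC2A3, the second glucose transporter, with at most 0.133 CPM, ENO2 with at most 0.257 CPM, P4HA2 with at most 0.601 CPM and ANKRD37 with 0.128 to 1.06 CPM. A count of 0 allows 3 counts, which is between 0.145 and 0.385 CPM in the human libraries and between 0.0863 and 0.299 CPM in the mouse libraries. In MS-5 the untested genes were Slc2a3 and Egln3, at 0 in all libraries, Aldoc at 0.279 to 1.10 CPM and Eno2 at 0.266 to 0.805 CPM. Car9 ranged from 0 to 0.236 CPM in the mouse libraries. Glucose transport in both lines was thus represented by SLC2A1 alone among the pair listed, at 13.4 ± 1.36 RPKM in Adh REC-1 and 22.4 ± 1.24 RPKM in MS-5 in coculture.

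Coculture was next compared with culture alone, and the bound with the free REC-1 fraction. A gene was called when its adjusted p, from edgeR's quasi-likelihood test with Benjamini-Hochberg adjustment over all genes tested, was at most 0.05 and its fold change at least 1.5, or 0.58 on the log2 scale. Of the 34 members tested in REC-1, 0 were called in Susp against Sep, 0 in Adh against Sep and 0 in Adh against Susp. Over all 12861 genes tested the share called was 0.731%, 2.4% and 0.778%. At an unadjusted p below 0.05, 14, 13 and 3 members passed in these comparisons, where all genes passed at 16.7%, 20.2% and 18%. The 95% confidence interval of the fold change lay within 1.5-fold in either direction for 26 of the 34 members in each REC-1 comparison. The 8 members whose interval reached further differed between the comparisons, but ALDOC, NDRG1, MXI1 and DDIT4 were among them each time.

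Most glycolytic enzymes nevertheless lay above 0 in both coculture fractions against Sep. CPM is a share of the RNA of a whole culture, in which more RNA per cell and more cells of one state cannot be told apart. In Susp against Sep, the log2 fold change was above 0 for all 16 enzymes tested, with a median of 0.22, and in Adh against Sep it was above 0 for 13 of 16, with a median of 0.23. Over all genes, 49.2% and 49.5% were above 0, with medians of -0.0059 and -0.0034. HK1 and HK2 were close to 0 in Susp against Sep, at 0.009 and 0.004. The enzymes below 0 in Adh against Sep were PFKL, PFKP and HK1, at -0.19, -0.10 and -0.07. In Susp against Sep, 8 of the 16 enzymes had every Susp library above every Sep library, while 5.5% of all genes did. In Adh against Sep, 10 of 16 had every Adh library above every Sep library, where 7.42% of all genes did. Both comparisons use the same Sep libraries, so they are not independent of each other. In Adh against Susp the median was 0.02, with 9 of 16 enzymes above 0, where 49.1% of all genes were, and 0 of 16 without overlap, against 11.4% of all genes.

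**Figure D2:**
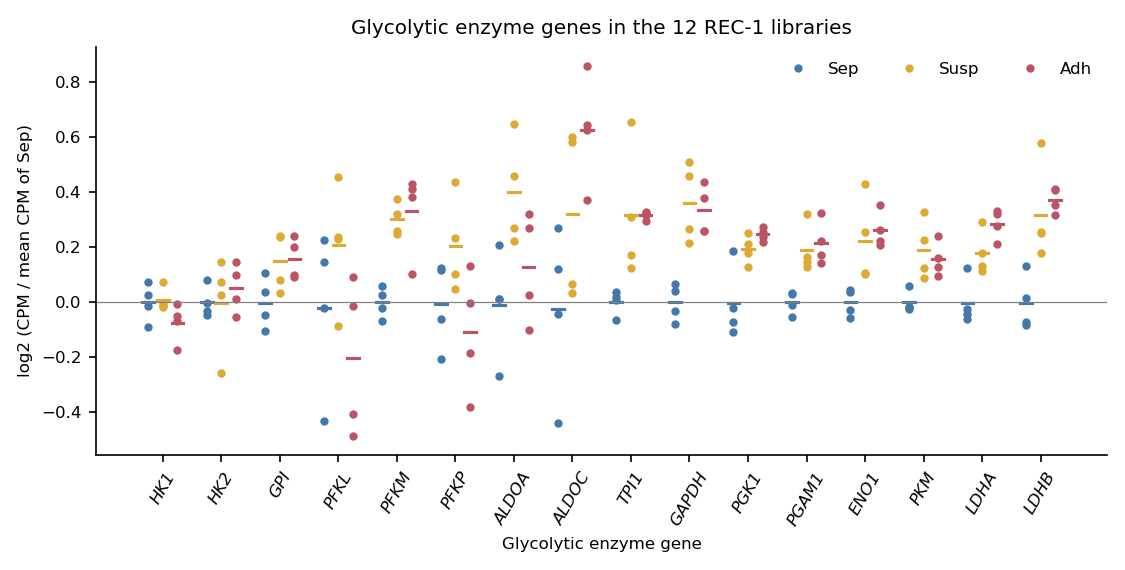
Log2 of the CPM of each library over the mean CPM of Sep for the 16 tested glycolytic enzyme genes in REC-1; points are libraries and short lines are group means of the log2 values. Most Susp (yellow) and Adh (red) points from TPI1 to LDHB lie above the Sep points (blue), with Susp replicate 2 the highest Susp point for TPI1, ENO1 and LDHB.

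Added up, the 17 enzyme genes made 10062, 9533, 9744 and 10016 CPM in Sep replicates 1 to 4. In Susp they made 10916, 13277, 11864 and 10896 CPM, and in Adh 11470.5, 11748, 11527 and 12223 CPM. The Susp and Adh sums thus did not overlap with those of Sep and overlapped with each other, with means of 9839 ± 248 (Sep), 11738 ± 1121 (Susp) and 11742 ± 342 CPM (Adh; SD, n = 4 each). Before scaling between libraries, these genes took 0.975 to 1.01% of the counts in Sep, 1.08 to 1.29% in Susp and 1.15 to 1.21% in Adh. Without Susp replicate 2, the median log2 fold change of the enzymes was 0.14 in Susp against Sep, with 16 of 16 above 0, and 0.07 in Adh against Susp. Over the other single libraries left out, 14 to 16 enzymes were above 0 in Susp against Sep, with the lowest number without Susp replicate 3.

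**Figure D3:**
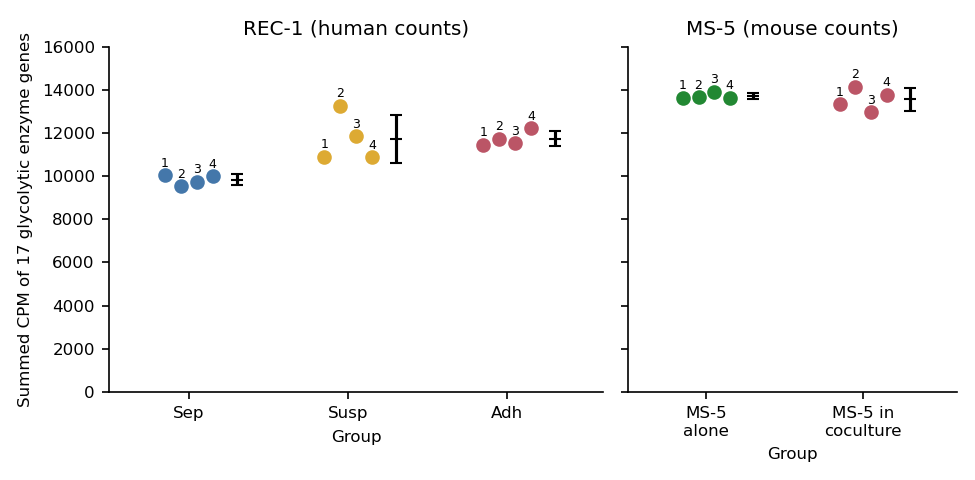
Summed CPM of the 17 glycolytic enzyme genes in each library, labelled with its replicate number, for REC-1 (human counts) and MS-5 (mouse counts); the bars to the right of each group are mean ± SD (n = 4). Sep libraries lie between 9533 and 10062, below every Susp and Adh library, and the MS-5 groups overlap.

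GAPDH (ENSG00000111640, chr12:6534512-6538374, plus strand) encodes the enzyme that reduces NAD in mid-glycolysis. Its level was 931, 858, 886 and 949 CPM in Sep, 1051, 1287, 1243 and 1088 CPM in Susp and 1084, 1178, 1082 and 1226 CPM in Adh. Every Susp and Adh library lay above every Sep library. On the log2 scale, Susp exceeded Sep by 0.37 (SE 0.08, adjusted p = 0.0374, edgeR) and Adh exceeded Sep by 0.33 (SE 0.08, adjusted p = 0.0318), so the adjusted p passed and the fold minimum was not reached. GAPDH was the only member to pass the adjusted p in Susp against Sep, where 1.02% of all genes passed, and 0 members passed it in Adh against Susp, where 0.941% did. It passed in 2 of the 12 fits that each left out 1 library, namely those without Susp replicates 1 or 2, with adjusted p from 0.0212 to 0.147. Reads of 62 named GAPDH pseudogenes amounted to at most 0.261% of its counts.

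In Adh against Sep 3 members passed the adjusted p, or 8.82% of those tested, against 3.41% of all genes, and the other two were the lactate dehydrogenase subunits. LDHA (ENSG00000134333, chr11:18394560-18408425, plus strand) was at 1085, 955, 967 and 978 CPM in Sep, 1092, 1218, 1127 and 1078 CPM in Susp and 1253, 1152, 1244 and 1206 CPM in Adh. Its Adh libraries lay above all Sep libraries, and its Susp libraries overlapped with Sep through Sep replicate 1. Adh exceeded Sep by 0.28 (SE 0.07, adjusted p = 0.0363, edgeR) and Susp exceeded it by 0.18 (adjusted p = 0.232) on the log2 scale. LDHB (ENSG00000111716, chr12:21635342-21757857) was at 1761, 1521, 1627 and 1529.7 CPM in Sep, 1915, 2402, 1918 and 1822 CPM in Susp and 2131, 2002, 2137 and 2055 CPM in Adh. Every Susp and Adh library again lay above Sep, with Susp replicate 2 highest. The log2 fold change was 0.37 in Adh against Sep (SE 0.09, adjusted p = 0.0271) and 0.32 in Susp against Sep (adjusted p = 0.0886). When single libraries were left out of Adh against Sep, GAPDH passed in 5, LDHA in 3 and LDHB in 5 of 12 fits, with the highest adjusted p at 0.115, 0.149 and 0.115. The fits that lost all 3 left out Sep replicate 2, 3 or 4 or an Adh library.

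The ratio of LDHB to LDHA within a library does not depend on scaling between libraries. Its mean log2 value, from counts, was 0.69 in Sep, 0.83 in Susp and 0.78 in Adh, and neither coculture group overlapped with Sep. The difference of 0.14 between Susp and Sep became 0.09 without Susp replicate 2. The exact two-sided permutation p was 0.0286 for both, the smallest that 4 against 4 libraries allow, and after adjustment over the 9 pairs of related genes it was 0.0857 for Susp and 0.129 for Adh. In 2 further pairs Susp did not overlap with Sep, BNIP3 to BNIP3L and EGLN3 to EGLN1, with the same exact permutation p and adjusted p. The log2 ratio of ALDOC to ALDOA was higher in Adh without overlap, by 0.58 against Susp and 0.51 against Sep. The exact permutation p was again 0.0286 for each, and 0.257 and 0.129 after adjustment. ALDOC was at a low level. It was the only pair without overlap in Adh against Susp. No pair passed after adjustment in any comparison.

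The other enzymes gave smaller or more variable differences. TPI1, triosephosphate isomerase, was at 299, 284, 305 and 301 CPM in Sep, 324, 468, 368 and 335 CPM in Susp and 364, 372, 370.3 and 373 CPM in Adh, where the 4 Adh libraries lay within 10 CPM of each other. Its log2 fold change was 0.33 in Susp against Sep and 0.32 in Adh against Sep, with edgeR adjusted p of 0.13 and 0.0858, and the value in Susp became 0.19 without Susp replicate 2. ENO1 was at 3104, 2889, 2951 and 3089 CPM in Sep, 3228, 4052, 3586 and 3238 CPM in Susp and 3509, 3605, 3475 and 3841 CPM in Adh, with log2 fold changes of 0.23 and 0.26 against Sep, the former 0.15 without Susp replicate 2. Neither group overlapped with Sep for TPI1 or ENO1, and Susp replicate 2 was the highest library for both. PKM was at 861, 865, 866 and 912 CPM in Sep and at 935, 978, 956 and 1033 CPM in Adh, a log2 fold change of 0.16 (adjusted p = 0.234). PGK1 was at 445, 363, 385 and 373 CPM in Sep, 443, 466, 453 and 427 CPM in Susp and 473, 456, 467 and 461 CPM in Adh. PGAM1, phosphoglycerate mutase, was at 177, 166, 177 and 172 CPM in Sep, 194, 216, 189 and 191 CPM in Susp and 191, 195, 202 and 217 CPM in Adh. PFKM was at 47.4, 48.4, 45.8 and 44.4 CPM in Sep, 58.1, 60.4, 55.1 and 55.6 CPM in Susp and 60.7, 62.6, 61.8 and 49.9 CPM in Adh. For all of these every Adh library lay above every Sep library, with log2 fold changes of 0.25 for PGK1, 0.22 for PGAM1 and 0.34 for PFKM. ALDOC, the aldolase best known from brain, had a larger one of 0.64 at a low level, at 5.98, 6.69, 7.43 and 4.55 CPM in Sep and 9.62, 11.2, 7.97 and 9.49 CPM in Adh (edgeR adjusted p = 0.079).

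These counts of members depended on Susp replicate 2, which is in neither group of Adh against Sep but enters the shared estimate of the spread. Without Susp replicate 2, the fit of Adh against Sep gave an adjusted p of at most 0.05 for 11 members rather than 3, or 11 of 34 against 11.9% of all genes, where 3.41% had passed with that library. In that fit 1 member, ALDOC, was called (log2 fold change 0.65, edgeR adjusted p = 0.0377), against 3.97% of all genes. The others were PFKM, TPI1, GAPDH, PGK1, PGAM1, ENO1, PKM, LDHA, LDHB and SLC2A1. Their fold changes hardly moved, as for TPI1, which was 0.32 with and without that library while its adjusted p went from 0.0858 to 0.00161.

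For HK1, HK2, GPI, PFKL, PFKP and ALDOA the libraries of Adh and Sep overlapped. GPI, phosphoglucose isomerase, was at 269, 310.3, 279 and 296 CPM in Sep, 305, 340.3, 341 and 295 CPM in Susp and 309, 332, 308 and 341 CPM in Adh, with overlap. HK1 was at 198, 208, 222 and 215 CPM in Sep and 187, 209.6, 203 and 201 CPM in Adh, a log2 fold change of -0.07 (95% interval -0.23 to 0.08). HK2 was at 184, 195, 179 and 180.5 CPM in Sep, 204, 154, 194 and 188 CPM in Susp and 198, 204, 186 and 178 CPM in Adh, and all groups overlapped. PFKL and PFKP, the liver and platelet forms of phosphofructokinase, were lower in Adh than in Susp by their means. PFKL was at 74.0, 108, 92.8 and 92.2 CPM in Susp and 56.1, 77.8, 59.4 and 83.8 CPM in Adh, a log2 fold change of -0.41 (edgeR adjusted p = 0.202), and PFKP had -0.31 (adjusted p = 0.214). ALDOA was at 836, 1124, 986 and 865 CPM in Susp and 669.9, 866, 731 and 897 CPM in Adh (log2 fold change -0.27, adjusted p = 0.253), a difference that became -0.17 without Susp replicate 2. Sep lay between 596 and 829 CPM for ALDOA, so that every Susp library was above every Sep library, with a log2 fold change of 0.41 (SE 0.12, adjusted p = 0.12). Adh and Susp overlapped for PFKL, PFKP and ALDOA, the members with an unadjusted p below 0.05 in Adh against Susp.

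The genes that control entry into and exit from glycolysis overlapped between all REC-1 groups. PFKFB3 was at 22.4, 20.1, 18.4 and 21.1 CPM in Sep, 19.9, 15.4, 19.1 and 17.1 CPM in Susp and 18.5, 26.7, 16.2 and 22.1 CPM in Adh. PFKFB4, PDK1 and PDK3 likewise overlapped between all groups, with log2 fold changes from -0.11 to 0.27 and edgeR adjusted p of at least 0.495. The transporter SLC2A1 was at 68.0, 73.9, 72.6 and 81.5 CPM in Sep, 81.2, 96.2, 97.4 and 93.6 CPM in Susp and 81.8, 93.2, 81.2 and 99.6 CPM in Adh. Only Sep replicate 4 reached into the range of the coculture libraries, and the log2 fold changes were 0.32 in Susp (SE 0.10, adjusted p = 0.139) and 0.26 in Adh (SE 0.10, adjusted p = 0.139).

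HIF1A and EGLN1, the main oxygen sensor, overlapped between all groups. HIF1A was at 223, 172, 191 and 184 CPM in Sep, 202, 133, 199.7 and 194 CPM in Susp and 216, 201, 205 and 198 CPM in Adh. Susp replicate 2 lay below all others, and the 95% interval of the log2 fold change was -0.33 to 0.17 in Susp and -0.16 to 0.34 in Adh against Sep. EGLN1 was at 97.2, 79.0, 89.9 and 98.6 CPM in Sep, 89.8, 80.6, 83.5 and 96.2 CPM in Susp and 94.5, 85.7, 97.6 and 97.0 CPM in Adh. HIF is set mainly through the stability of its protein, which RNA does not show. EGLN3, an oxygen sensor that is itself a target of HIF, was at 11.0, 9.96, 8.68 and 14.9 CPM in Sep, 14.1, 19.9, 16.5 and 17.1 CPM in Susp and 13.8, 14.1, 14.6 and 17.6 CPM in Adh. Sep replicate 4 alone overlapped with the coculture libraries. Its log2 fold change of 0.60 in Susp against Sep (SE 0.16) was past the fold minimum but its edgeR adjusted p was 0.0983. Without Sep replicate 4 the log2 fold change was 0.77 (edgeR adjusted p = 0.0307) and the gene was called. With any other single library left out EGLN3 did not pass the adjusted p, and over all 22 alternative fits it passed in 5.

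Among the other hypoxia response genes, VEGFA, the angiogenic growth factor, came next. It was at 15.0, 18.8, 19.5 and 20.8 CPM in Sep, 18.8, 25.1, 30.1 and 29.1 CPM in Susp and 23.8, 19.1, 25.4 and 24.5 CPM in Adh. Sep and Susp overlapped through Susp replicate 1, and the log2 fold change was 0.48 in Susp (SE 0.15, edgeR adjusted p = 0.157) and 0.32 in Adh (adjusted p = 0.264). Without Susp replicate 1 it was 0.60 in Susp with an edgeR adjusted p of 0.0443, which made it a call. No other single library left out brought VEGFA past the adjusted p, and it passed in 4 of 22 alternative fits. DDIT4, a stress-induced inhibitor of mTOR signalling, had the largest log2 fold change of all members, 1.35 in Susp against Sep (SE 0.50, adjusted p = 0.214), at levels of 0.157, 0.920, 0.732 and 0.718 CPM in Sep, 0.863, 2.09, 2.08 and 1.34 CPM in Susp and 0.451, 1.54, 1.03 and 1.92 CPM in Adh. The groups overlapped, and the Adh values rest on 6 to 16 human counts beside 2310 to 3441 mouse counts of Ddit4 in the same libraries.

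BNIP3 and BNIP3L, which tag mitochondria for removal, were each present in both lines. BNIP3 was at 24.2, 22.3, 20.1 and 23.0 CPM in Sep and 24.8, 27.4, 24.5 and 28.3 CPM in Susp, with every Susp library above Sep (log2 fold change 0.23, edgeR adjusted p = 0.33). Its level is uncertain, because 39 named BNIP3 pseudogenes took reads equal to 7.08 to 20.8% of its counts. BNIP3L, P4HA1, KDM3A, MXI1, ADM, NDRG1 and HILPDA overlapped between the groups in all 3 comparisons. Their log2 fold changes lay between -0.40 for NDRG1, which was at 1.46 to 2.20 CPM in Sep and 1.11 to 1.59 CPM in Susp, and 0.35 for MXI1, both in Susp against Sep. KDM3A, a histone demethylase induced by HIF, was at 67.1 to 73.5 CPM in Sep and 62.3 to 72.3 CPM in Adh, with Susp replicate 2 at 49.8 CPM.

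**Figure D4:**
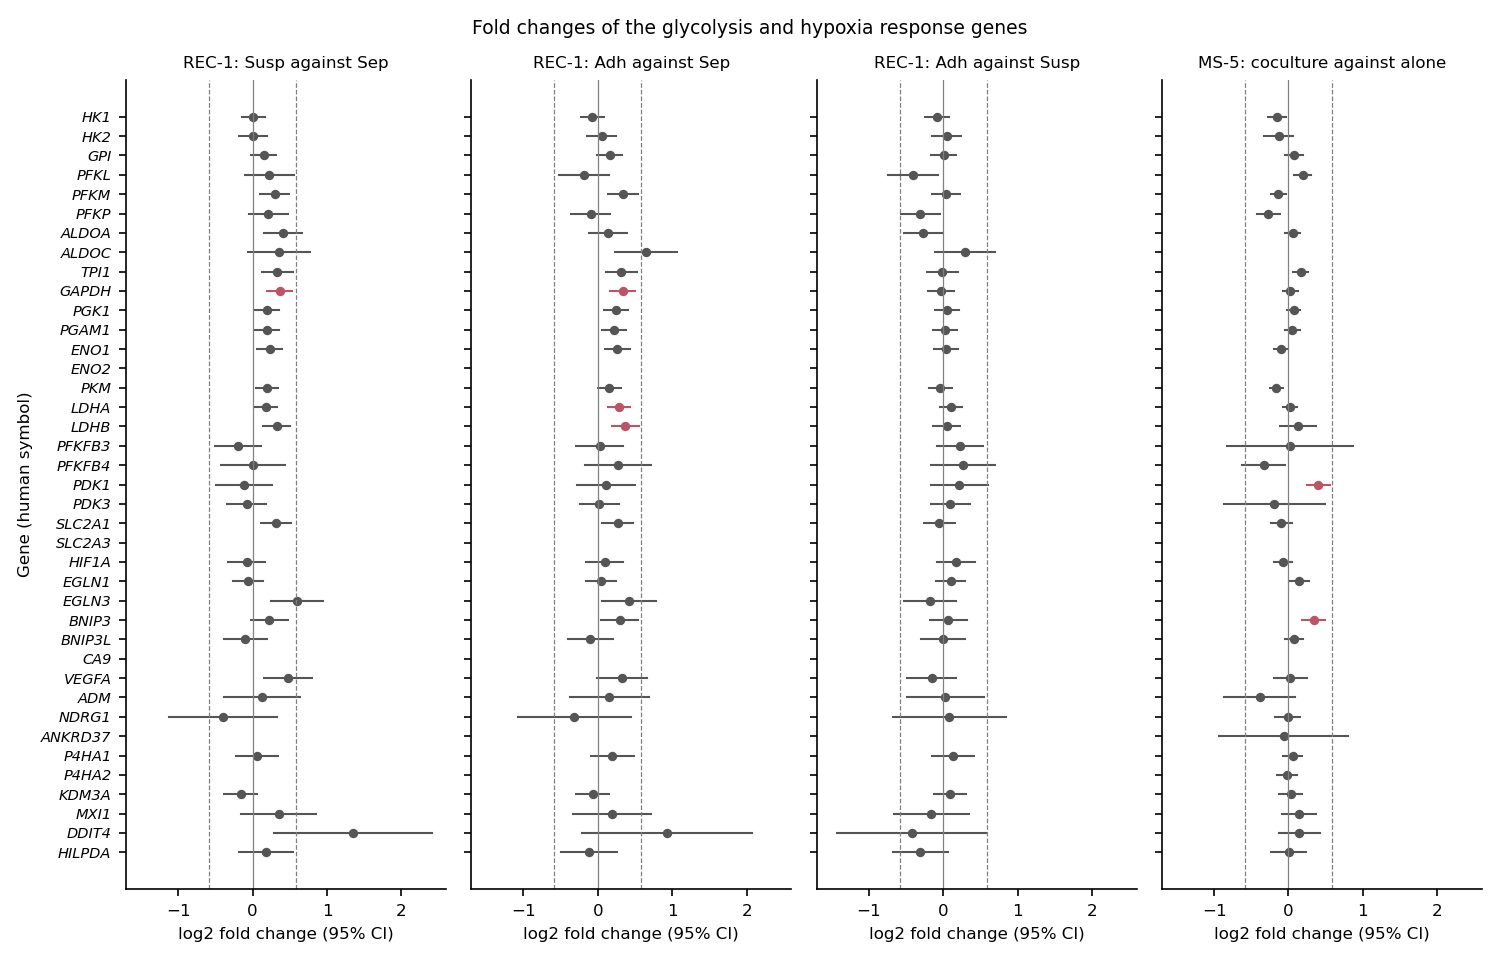
Log2 fold change of each tested member with its 95% confidence interval in the 4 comparisons; red marks an edgeR adjusted p of at most 0.05, dashed lines mark a 1.5-fold change, and rows without a point were not tested. The enzymes from HK1 to LDHB lie at or above 0 in Susp against Sep, and on both sides of 0 in Adh against Susp (-0.41 for PFKL to 0.29 for ALDOC) and in MS-5, and no red point is past a dashed line.

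The mouse counts gave the same genes in the stroma, with and without REC-1 on top. Of 34 members tested 0 were called, where 0.205% of all 12201 genes were. The 95% interval of the fold change lay within 1.5-fold for 29 of the 34. The adjusted p passed for 2 members, or 5.88%, against 0.77% of all genes, and 11 members had an unadjusted p below 0.05, against 11.3% of all genes. Pdk1 (ENSMUSG00000006494, GRCm38 chr2:71873224-71903858) was at 66.7, 61.9, 61.6 and 56.3 CPM alone and at 91.4, 78.4, 76.6 and 78.7 CPM in coculture. All coculture libraries lay above all libraries of MS-5 alone, and the difference was 0.40 on the log2 scale (SE 0.07, adjusted p = 0.0155, edgeR). Bnip3 was at 33.8, 31.1, 30.2 and 29.3 CPM alone and at 38.6, 38.8, 39.7 and 39.9 CPM in coculture, again without overlap, with a log2 difference of 0.34 (SE 0.07, adjusted p = 0.0364). Pdk1 passed in 5 of 8 fits that each left out 1 library and Bnip3 in 1 of 8, the fit without MS-5 replicate 1, with the highest adjusted p at 0.0728 and 0.137. With counts thinned to the smallest library Bnip3 no longer passed (log2 difference 0.35, edgeR adjusted p = 0.0529).

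The enzymes of MS-5 did not lie on one side. Of 15 tested, 9 had a log2 fold change above 0, with a median of 0.02, while 49.6% of all genes were above 0. Every coculture library was higher for Tpi1 and Pgk1, where 3.06% of all genes were, and lower for Pfkm, Pfkp and Pkm, where 3.68% of all genes were. Tpi1 was at 845, 869.5, 879 and 814 CPM alone and 935, 1011, 928 and 943 CPM in coculture (log2 fold change 0.16, edgeR adjusted p = 0.146). Pkm, the most abundant member in MS-5 alone at 704 ± 20.4 RPKM, was at 3537, 3380.1, 3625 and 3539 CPM alone and 3080.0, 3305, 2998 and 3195 CPM in coculture (log2 fold change -0.16, adjusted p = 0.114). Gapdh was at 1993, 2045, 2039.6 and 1993 CPM alone and 1949, 2153, 1931 and 2155 CPM in coculture, with a 95% interval of the log2 fold change from -0.08 to 0.12. Ldha was similar, at 2059, 2084, 2151 and 2129.8 CPM alone and 2066, 2195, 2079.9 and 2204 CPM in coculture, with an interval from -0.07 to 0.11. Hk1, Hk2, Gpi1, Aldoa, Pgam1, Eno1 and Ldhb overlapped between the groups, with log2 fold changes from -0.15 to 0.13 and adjusted p of at least 0.292. GAPDH and LDHA thus passed the adjusted p in bound REC-1 cells and not in the stroma of the same libraries, but the difference between the lines was not tested.

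The phosphofructokinase genes of MS-5 did not go the same way. The log2 ratio of Pfkp to Pfkl counts was -3.34 alone and -3.80 in coculture, and that of Pfkm to Pfkl was -0.71 and -1.04, both without overlap between the groups. The exact permutation p was 0.0286 for each and 0.0762 after adjustment over 8 pairs. Pfkl was at 348, 350.0, 392 and 357 CPM alone and 407, 427, 384 and 434 CPM in coculture, with an overlap through MS-5 replicate 3 and Adh replicate 3 (log2 fold change 0.19, edgeR adjusted p = 0.157). Bnip3 to Bnip3l was the third pair without overlap, with a log2 ratio of -2.76 alone and -2.50 in coculture and the same exact permutation p.

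Adm, which encodes the vasodilator peptide adrenomedullin, differed widely between libraries of a group. It was at 45.4, 64.6, 78.9 and 102 CPM in replicates 1 to 4 of MS-5 alone and at 36.7, 46.6, 61.5 and 77.5 CPM in replicates 1 to 4 of the coculture. The groups overlapped widely, with a log2 difference of -0.39 (SE 0.22, adjusted p = 0.546, edgeR). The coculture value was below that of MS-5 alone for each of the 4 replicate numbers, and with the replicate number in the model the difference was -0.38 (edgeR adjusted p = 0.000541), although the labels do not say what the number stands for. Ddit4 was at 72.3, 63.3, 87.03 and 90.4 CPM alone and 69.2, 78.6, 90.3 and 109 CPM in coculture, also with overlap. Pfkfb4 was at 42.0, 52.3, 42.1 and 38.7 CPM alone and 40.5, 42.1, 28.8 and 27.1 CPM in coculture (log2 fold change -0.33, adjusted p = 0.359). Hif1a, Egln1, Slc2a1, Vegfa, Bnip3l, Ndrg1, P4ha1, P4ha2, Kdm3a, Mxi1 and Hilpda overlapped, with log2 fold changes from -0.10 to 0.14. Pdk3, Pfkfb3 and Ankrd37 lay between 0.313 and 1.41 CPM, and their intervals reached past 1.5-fold.

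**Figure D5:**
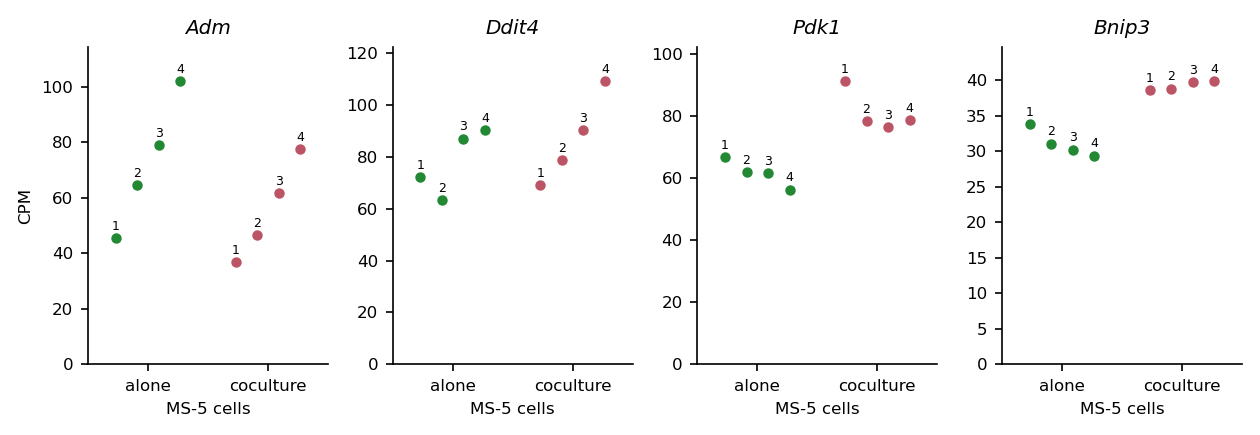
CPM of Adm, Ddit4, Pdk1 and Bnip3 in MS-5 cells alone (green) and in coculture (red); each point is a library labelled with its replicate number and the axes start at 0. Pdk1 and Bnip3 do not overlap between the groups, while Adm and Ddit4 do and differ widely between libraries of a group.

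A further 76 genes of the pathway were counted for context, as other glycolysis genes, pyruvate entry into mitochondria, the pentose phosphate route, other HIF components and other hypoxia targets. In REC-1, 54 of them were tested, and 1 was called in Adh against Sep, 0 in Susp against Sep and 0 in Adh against Susp, where 2.4%, 0.731% and 0.778% of all genes were. It was AK4, a mitochondrial adenylate kinase known as a hypoxia target, at 14.6, 15.1, 10.3 and 11.5 CPM in Sep, 20.3, 17.5, 15.0 and 16.1 CPM in Susp and 23.3, 23.5, 21.6 and 21.8 CPM in Adh. The Adh libraries lay above all others, and the log2 fold change against Sep was 0.81 (SE 0.14, edgeR adjusted p = 0.00447), with an adjusted p of at most 0.0224 in all 12 fits that left out 1 library. PDHA1 and DLD, subunits of pyruvate dehydrogenase, passed the adjusted p in the same comparison below the fold minimum, with log2 fold changes of 0.31 and 0.34 (adjusted p = 0.0302 and 0.0447). With AK4, 3 of the 54 passed the adjusted p, or 5.56%, against 3.41% of all genes. Of the 10 tested genes for pyruvate entry, 6 had every Adh library above every Sep library, as 7.42% of all genes did. In MS-5, 57 of the 76 were tested and 0 were called, against 0.205% of all genes. Fam162a, a hypoxia target, and Pgd of the pentose phosphate route passed the adjusted p, with log2 fold changes of 0.30 (edgeR adjusted p = 0.0147) and -0.26 (adjusted p = 0.0115). These 2 were 3.51% of the 57, against 0.77% of all genes.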

How the data were processed

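The authors split the read pairs of each library by species with Xenome and aligned them with STAR 2.5.1b to GRCh38 or GRCm38 with the Ensembl 87 annotation, keeping uniquely mapped reads. They then counted fragments per gene with featureCounts of Subread 1.5.2, and the deposited counts were neither normalized nor filtered. Reads from stretches shared with a pseudogene or a near-identical paralog are lost under unique mapping. The 12 REC-1 libraries were read from the human counts, and the 4 Adh and 4 MS-5 libraries from the mouse counts. The 20 other columns were not used. Total counts per library are given with the results and set how precisely the least abundant members are known, and the floor of 3 counts covers counting error only.

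Counts were tested with edgeR 4.0.16 in R 4.3.3 (filterByExpr, TMM scaling, quasi-likelihood test with the legacy setting), in 1 model of the REC-1 libraries and 1 of the mouse libraries, and adjusted over all genes tested. Code was tested on simulated counts with known changes. CPM used TMM-scaled library sizes, and RPKM used the union of exons in GENCODE release 44 for human and M21 for mouse genes, since Ensembl 87 was not used here. Human start sites were those of MANE Select transcripts in release 44. Ratios of 2 related genes within a library (counts plus 0.5) were compared by exact permutation tests. Libraries with the same replicate number were checked as pairs. The pair of libraries deviated together from the group means (a correlation over 0.1) for 1 of 4 numbers in Adh with Susp. The same held for 1 of 4 in Susp with Sep, 3 of 4 in Adh with Sep and 3 of 4 in Adh with MS-5. The labels do not say what the number marks, so it stayed out of the main model and entered as an alternative. The alternatives added the replicate number to the model, or used DESeq2 1.42.0, upper-quartile scaling, other filters, no fold minimum, removal of mitochondrial genes, thinned counts, subtraction of reads assigned to the wrong species, and each library left out in turn.

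The members, the gene lists and the tests were chosen with earlier results of these data known. Values were given for all members, per library for the most abundant gene of each glycolytic step and for members that passed or came near a threshold, the latter chosen after their values were seen. Other pathway genes are named where they passed the adjusted p.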

Additional observations from a re-analysis of the deposited data

Results flagged for a closer look

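In 170 groups of 4 libraries, 1 library was tested for standing apart from the other 3 by the ratio of its gap to the range of the group, set against Dixon's 95% critical value. This marked 10 groups, and chance marks about 8.5 of 170. In the human counts Susp replicate 2 was apart for 3 genes. It was at 2402 CPM for LDHB, against 1822 to 1918 CPM in the other Susp libraries, at 133 CPM for HIF1A, against 194 to 202 CPM, and at 49.8 CPM for KDM3A, against 66.1 to 69.1 CPM. HK1 was at 221 CPM in Susp replicate 3, against 208 to 209 CPM. PFKM was at 49.9 CPM in Adh replicate 4, against 60.7 to 62.6 CPM, and PKM was at 912 CPM in Sep replicate 4, against 861 to 866 CPM. In the mouse counts of Adh libraries, Aldoa was at 1082 CPM in replicate 3, against 1200.4 to 1221 CPM, and Slc2a1 was at 72.2 CPM in the same library, against 79.9 to 81.4 CPM. Pgk1 was at 1240.4 CPM in replicate 2, against 1169 to 1176 CPM, and Pdk1 at 91.4 CPM in replicate 1, against 76.6 to 78.7 CPM.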

How the results depend on the processing

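The absence of calls among the members held under most settings, and the exceptions were 1 to 5 genes. In Susp against Sep, 1 member was called when the replicate number entered the model (replicate block), 1 with DESeq2, 1 with no low-count filter and 1 with no fold minimum, and 0 to 1 when single libraries were left out. In Adh against Sep, 1 was called under the replicate block, 1 with DESeq2, 1 under the block without Susp replicate 2, 3 with no fold minimum, 5 when 1% of the other species' count was subtracted, and 0 to 1 with single libraries left out. In Adh against Susp, 4 were called under that subtraction. In MS-5, 1 was called under it and 2 with no fold minimum. That subtraction was larger than the share measured with marker genes. The share of all genes called moved too. In Susp against Sep it went from 0.731% to 1.36% under the block, 1.35% with DESeq2 and 0.765% with no low-count filter. With no fold minimum it was 1.02% in Susp against Sep and 3.41% in Adh against Sep. In MS-5 it went from 0.205% to 0.246% under the subtraction and 0.77% with no fold minimum. The calls over all genes moved likewise in the other comparisons. In Adh against Sep they went from 309 to 384 under the block and 527 with DESeq2. They reached 680 under the block without Susp replicate 2 and 739 under the subtraction. In Adh against Susp they went from 100 to 281 under the block, 282 with DESeq2 and 341 with no low-count filter. There they reached 419 under the block without Susp replicate 2 and 584 under the subtraction. The subtraction turned P4HA1 to -0.87 in Adh against Susp and to -0.81 in Adh against Sep (log2 fold changes). It turned DDIT4 to -6.00 in Adh against Sep and Ldhb to -0.67 in MS-5. None of these was called in the main fits. With the measured share, a smaller subtraction, 0 members were called in every comparison, as in the main fits.

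Counts of members at an adjusted p of at most 0.05 moved more, as did the share of all genes that passed. In Adh against Susp the count went from 0 to 1 under the replicate block, 1 with no low-count filter, 4 under the 1% subtraction and 4 under the block without Susp replicate 2, where all genes went from 0.941% to 5.33%, 2.18%, 6.01% and 14.6%. In Susp against Sep it went from 1 to 6 under the replicate block, 4 with DESeq2, 6 with no low-count filter and 7 under the block without Susp replicate 2 (all genes from 1.02% to 3.86%, 2.98%, 2.49% and 5.59%), and ranged from 0 to 2 over the libraries left out in turn. In Adh against Sep it went from 3 to 5 under the replicate block, 8 with DESeq2, 1 with upper-quartile scaling, 9 under the 1% subtraction and 15 under the block without Susp replicate 2 (all genes from 3.41% to 5.65%, 7.57%, 3.28%, 8.49% and 22.1%), and ranged from 0 to 11. In MS-5 it went from 2 to 8 under the replicate block, 5 with DESeq2, 6 with no low-count filter and 1 with thinned counts (all genes from 0.77% to 3.57%, 2.09%, 1.61% and 0.806%), and ranged from 0 to 2. Not every replicate number paired its libraries, and the labels do not say what the number stands for, so the fits with and without the block are both given. Under it, Adm in MS-5 was lower by a log2 fold change of -0.38 (edgeR adjusted p = 0.000541). The cause of these changes was not tested. Of 139 results for single genes, 95 kept their side of the adjusted p of 0.05 under every setting, and 61 of these also kept their sign. Depth limits DDIT4, NDRG1, Pdk3, Pfkfb3 and Ankrd37, and no set of libraries in low oxygen gives their range.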

Other observations

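The pentose phosphate genes, which branch off glycolysis at phosphorylated glucose, lay mostly on the same side as most glycolytic enzymes in REC-1. Their log2 fold change was above 0 for 6 of 7 genes in Susp against Sep, with a median of 0.24, and for 7 of 7 in Adh against Sep, with a median of 0.18, where 49.2% and 49.5% of all genes were above 0. In REC-1 none of the 7 passed the edgeR adjusted p of 0.05 in these comparisons, where 1.02% and 3.41% of all genes did. In each of them 3 had an unadjusted p below 0.05, where 16.7% and 20.2% of all genes did. In MS-5, 2 of 7 were above 0, with a median of -0.05, where 49.6% of all genes were above 0. The other HIF pathway components, among them EPAS1, ARNT and VHL, had medians of -0.21 in Susp against Sep and -0.16 in Adh against Sep, with 2 of 8 tested genes above 0 in both.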
